A study of Mus musculus with 12 samples.

Results

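An infarcted mouse left ventricle was set against a pressure-overloaded one, both sampled 1 month after surgery, to find the genes and pathways whose difference from sham was unlike in the 2 injuries. The comparison uses 4 arrays of the 12 in the series. In order they are myocardial infarction (MI) at 1 month, the sham operation of the infarction series at 1 month, transverse aortic constriction (TAC) at 1 month, and the sham operation of the constriction series at 1 month. All mice were Balb/c, aged 6 to 8 weeks, and total RNA of the left ventricle was hybridised, 5 µg an array. Neither transgene nor drug was used in these 4 groups. For MI the left coronary artery was tied near its origin, and the description of the series adds 30 min of occlusion followed by reperfusion, whereas the sample labels name only the tie. For TAC a thread narrowed the transverse aorta around a needle that was then withdrawn. Which sham belongs to which injury is known from the sample titles alone. The number of animals behind an array, pooled or single, is not given in the sources used here.

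An infarct kills muscle in the territory of 1 artery. The dead tissue is cleared by neutrophils and macrophages and replaced by a collagen scar made by activated fibroblasts, while the surviving muscle enlarges. Aortic narrowing leaves the muscle alive but makes every beat work against a higher pressure, so that cardiomyocytes thicken and fibrosis spreads between them without a single large scar. Both injuries are known for a return of fetal genes such as those of atrial natriuretic peptide and beta-myosin.

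Each gene was given 1 value, the net difference, on the log2 scale: MI minus its sham, less TAC minus its sham. A positive net difference means that the gene stood higher after MI, relative to sham, than after TAC. If both injuries are instead set against the mean of both shams, the shams cancel and the value becomes MI minus TAC, here called the direct difference. A gene was counted as separating the injuries when its net difference was at least 1 in size, a 2-fold difference of folds, and the brightest of its 4 signals exceeded 25.9, the median over the 12 arrays. With 1 array a group no difference at 1 month has a replicate or a test, so every value is a description of these arrays. Whole ventricle was measured, so fewer cells of a type and less RNA per cell cannot be told apart.

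The 4 arrays had 2% trimmed mean signals from 105 to 131 and were scaled by factors from 0.872 to 1.09. For intact RNA the 3' and 5' probes of actin read alike, and their ratio was 1.20 to 1.29. Markers of ventricular muscle were near the top of the scale on all 4 arrays, the ventricular light chain Myl2 at 12592 in MI and 13318 in its sham, against 10973 in TAC and 13452 in its sham. The 4 measured sex-linked genes had net differences between -0.34 and 0.37. The shams, neither of them injured, came from different series with 1 array each, so their difference mixes series, operation and noise. Between the sham of MI and the sham of TAC 539 of 11624 genes differed 2-fold at any signal. The brighter sham also exceeded the median signal for 467 of them, or 4.02% of all genes. That contrast joins 2 arrays, whereas the net difference joins 4.

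Of 11624 genes, 829 passed the net difference, or 7.13%. Of these, 534 were higher after MI (4.59%) and 295 lower (2.54%). The direct difference was 2-fold for 393 genes (3.38%), 207 higher (1.78%) and 186 lower (1.60%), and 236 genes (2.03%) passed both, 143 higher (1.23%) and 93 lower (0.800%). Most of these were dim. Of genes whose brightest signal lay between that median and a signal of 111, the upper quartile, 17.5% passed the net difference and 454 of 4129 differed 2-fold between the shams, whereas of brighter genes 1.47% and 62 of 7368 did. Among the 236 genes, 85.6% were under that signal. The description below therefore leans on the 34 brighter genes that passed both settings (0.292% of genes), 28 higher (0.241%) and 6 lower (0.0516%). This stricter minimum was set out as an alternative beside the lower one.

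The split between higher and lower depends on how the arrays are brought to a common scale. With the scaling used here 64.4% of the 829 genes were higher after MI, with quantile normalization 53.6%, and with the signals as deposited 37.8%. Unscaled signals put the median gene at a net difference of -0.24 and at 0.31 in TAC minus its sham. Net differences here are relative to that common level.

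**Figure D1:**
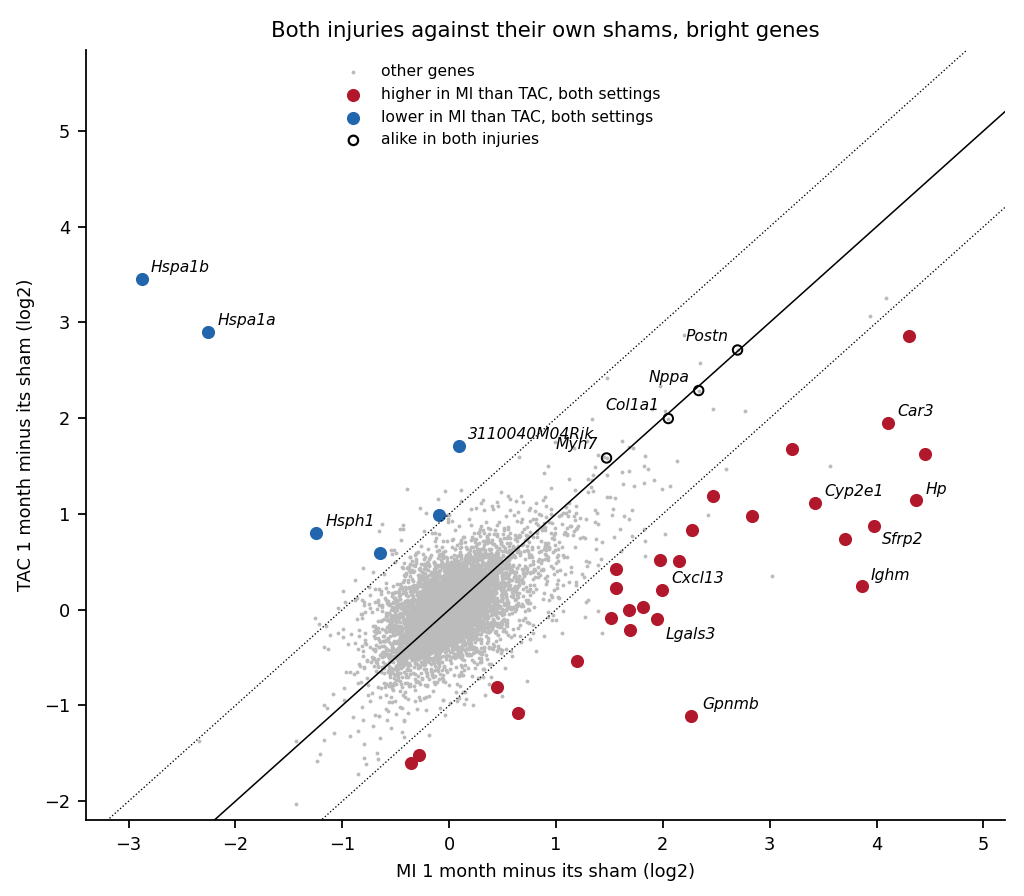
Each point is a gene whose brightest signal on the 4 arrays exceeded 111, with MI minus its sham on the horizontal axis and TAC minus its sham on the vertical axis, both in log2. The solid line marks equal change and the dotted lines a 2-fold difference; the 28 red genes and the 6 blue genes passed both sham settings, and the open circles are 4 genes chosen after their values were seen because they changed alike.

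The 28 brighter genes higher after MI owed this mainly to the infarcted ventricle. For 23 of them MI was at least 2-fold above its sham while TAC was not 2-fold below its own. For 3 of them only TAC met its condition, at least 2-fold below its sham. Of the rest, 1 met both conditions and 1 neither. Of all genes 3.78% had MI 2-fold higher and 2.01% TAC 2-fold lower, with a signal above the median and whatever the other injury did. The 28 were picked by high net and direct differences, so these shares are no baseline for them. Of all 143 higher genes, 50 met only the MI condition, 59 only the TAC condition, 16 both and 18 neither. The 28 include antibody chains (Ighm, Igkv8-30, Igha, Jchain), macrophage products (Gpnmb, Lgals3, Mmp12, Ctss), the chemokines Ccl8 and Cxcl13, matrix and scar genes (Sfrp2, Fmod, Ccn5, Angptl7, Ecrg4, Adamtsl3), and genes high in fat (Car3, Cyp2e1). The others are Hp, Ildr2, Cdon, Rgs2, Plvap, S100a4, Slpi, Retnla, Zbtb16 and 4430402I18Rik. The 6 lower ones are Hspa1b, Hspa1a, Hsph1, 3110040M04Rik, Tmem216 and Haus8. These 34 are named because of the brighter minimum, which is outside the rule that fixed the other names.

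The 4 antibody genes bright enough to be tested, and Jchain with them, were highest on the MI array. Ighm, the heavy chain of immunoglobulin M, had a signal of 1062 in MI and 73.1 in its sham, against 95.1 in TAC and 80.3 in its sham. Only the MI array was high, and the other 3 lay close together. Its net difference was 3.62 and its direct difference 3.48. Jchain, the chain that joins secreted antibodies into larger units, stood at 438 in MI and 20.04 in its sham, against 28.9 in TAC and 9.33 in its sham, a net difference of 2.82. Igkv8-30, a kappa light chain segment, had 433 in MI and 33.2 in its sham, against 26.6 in TAC and 16.0 in its sham. Igha, the heavy chain of immunoglobulin A, had 142 in MI and 40.4 in its sham, against 32.5 in TAC and 31.8 in its sham. In each of these genes MI was above the other 3 arrays.

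Probe sets for antibody genes can bind several related transcripts, and Ighm has 11 of them here, of which 8 had a net difference above 0, 2 below 0 and 1 of 0. A value above 0 did not always mean a high MI array. In 1 of the 8, with a net difference of 1.61, MI, its sham and TAC were at the floor. Only the sham of TAC, at 13.9, was above it. Of all 20 antibody genes measured, 7 had a signal above the median on some array and all 7 were highest in MI. For Ighg3, Igk, Igkv14-111 and Iglv1 only the MI array was above that median. Their being highest in MI was thus fixed by the minimum and adds no support. The other 13 were dimmer, and 5 of these had a net difference below 0, as Igkv6-15 with -1.56. The probe set that reached 1593 in MI was at 32.2 in its sham, 37.1 in TAC and 4.54, the floor, in the sham of TAC. Of the 16 genes listed for B cells and plasma cells 4 were bright enough to be tested, and 3 of the 4, Ighm, Jchain and Mzb1, passed both settings, as 1.23% of all genes did in that direction. Mzb1, a chaperone of antibody-making cells, was dim, at 49.4 in MI and 27.8 in its sham, against 13.3 in TAC and 34.8 in its sham. The surface markers of B cells were too dim to be tested, under the signal of 18.1 that genes needed on average. Cd79a, part of the B cell receptor, stood at 14.2 in MI and 8.83 in its sham, against 19.6 in TAC and 37.3 in its sham. Ms4a1, the B cell antigen CD20, stood at 16.5 in MI and 11.8 in its sham, against the floor in TAC and 13.6 in its sham. Their net differences, 1.61 and 2.06, come from TAC below its sham more than from MI above its own. At 1 week, on 4 other arrays, Ighm had 174 in MI and 85.8 in its sham, against 137 in TAC and 105 in its sham, a net difference of 0.63. The difference in Ighm was therefore larger at 1 month than at 1 week on these arrays, and that change was not tested.

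**Figure D2:**
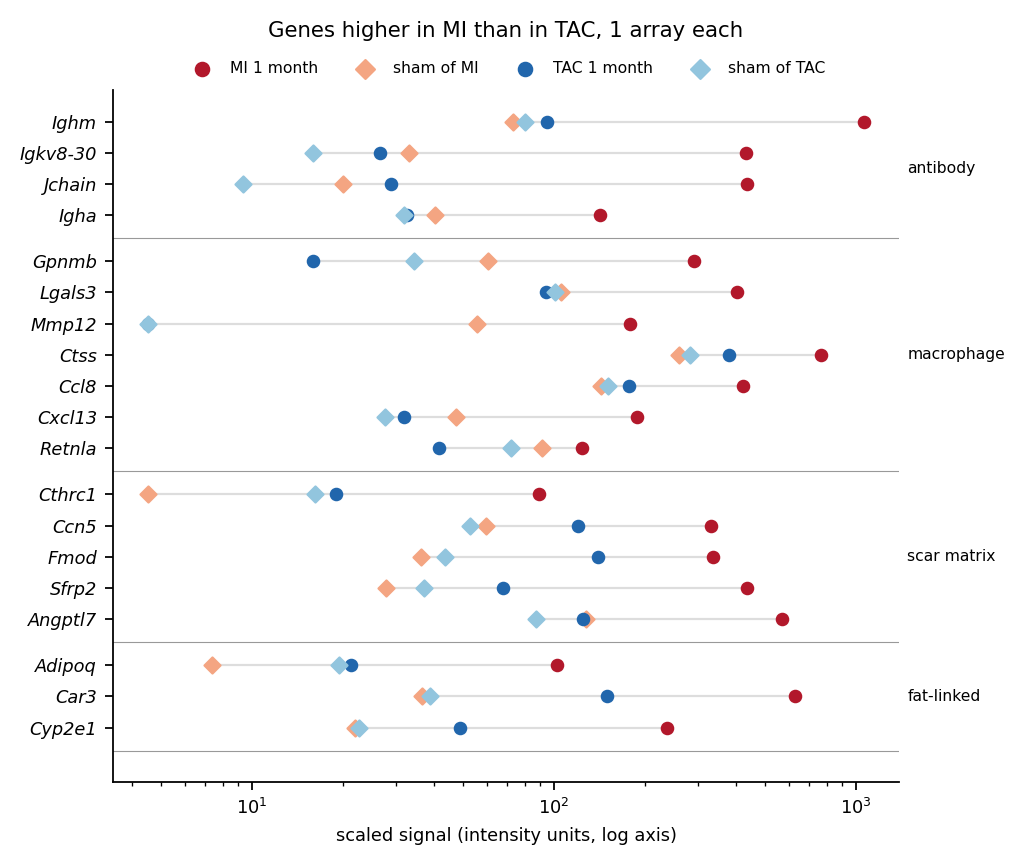
Scaled signal on a log axis for 19 genes, 1 array a group, with circles for MI and TAC and diamonds for their shams. In all 19 genes the MI array holds the highest of the 4 signals; where a marker sits at 4.54 it is at the floor, and for Mmp12 the TAC marker lies under that of its sham.

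Most macrophage genes had a net difference above 0. Of 27 listed macrophage and monocyte markers 26 were measured, 25 had a net difference above 0, the median was 0.61 against 0.01 over all genes, and 6 passed the net difference, all higher, against 4.59% of all genes. The markers' summed signal was 16829 in MI and 9096 in its sham, against 11659 in TAC and 9414 in its sham, so TAC was also above its sham. Ctss, the lysosomal protease cathepsin S, had 764 in MI and 259 in its sham, against 379 in TAC and 283 in its sham. Ccr2, the receptor that brings monocytes out of the blood, had 107 in MI and 22.1 in its sham, against 50.3 in TAC and 31.7 in its sham. Both passed the net and the direct difference. Another probe set of Ccr2 disagreed, with 41.4 in MI and 40.3 in its sham, against 44.9 in TAC and 28.4 in its sham, a net difference of -0.62. Cx3cr1 and Itgam passed only the first: Cx3cr1, a chemokine receptor of monocytes, stood at 77.6 in MI and 15.4 in its sham, against 77.7 in TAC and 71.3 in its sham. The injured ventricles were level in Cx3cr1, and the low array was the sham of MI.

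Some genes of the lipid-laden macrophages described in scars were also higher after MI. Gpnmb, a lysosomal membrane glycoprotein, had 292 in MI and 60.7 in its sham, against 16.0 in TAC and 34.4 in its sham. MI was above its sham and TAC below, which gave a net difference of 3.37 and a direct difference of 4.19. A second, dim probe set of Gpnmb disagreed, at the floor in MI and 9.24 in its sham, against the floor in TAC and in its sham. Lgals3, the secreted lectin galectin-3, had 404 in MI and 105 in its sham, against 94.3 in TAC and 101 in its sham, so 3 arrays were level and MI stood apart. Mmp12, the macrophage elastase, had 179 in MI and 55.6 in its sham, and was at the floor in TAC and in its sham. Its direct difference of 5.30 therefore rests on the floor, and the shams differed by 3.61. Trem2, a lipid-sensing receptor of macrophages, was above sham after both injuries, with 66.6 in MI and 5.71 in its sham, against 28.3 in TAC and 5.43 in its sham. Over the 16 measured genes of this list the median net difference was 0.55, with 5 called higher, against 4.59% of all genes, and 0 lower. The median was 0.27 over all probe sets and 0.30 with signals as deposited, where the median gene was at -0.24.

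These macrophage differences were already present at 1 week. The median of the macrophage markers was 1.40 at 1 week and that of the lipid-associated list 1.25, against 0.02 over all genes. Gpnmb reached a net difference of 6.33 and Lgals3 of 4.58 at that time. Resident macrophage genes had a median of 0.19 at 1 month, which was -0.06 with signals as deposited, beside -0.24 for the median gene. Of these genes 1 of 12 was called. This was Vsig4, a complement receptor, at 63.1 in MI and 15.8 in its sham, against 29.5 in TAC and 35.6 in its sham.

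Secreted signals of the immune response followed in part. Of 17 measured cytokines and chemokines 7 passed the net difference higher and 1 lower, with a median of 0.76. Of all genes 4.59% were called higher and 2.54% lower, and of dim genes 17.5% in either direction. Ccl8, a monocyte-attracting chemokine, had 424 in MI and 144 in its sham, against 178 in TAC and 151 in its sham, and was the only one of the 7 to pass the direct difference too. Ccl2, the main monocyte chemokine, had 49.1 in MI and 8.93 in its sham, against 58.4 in TAC and 40.6 in its sham, so here again the sham of MI was the low array. Cxcl10, an interferon-induced chemokine, was the one called lower, at 20.8 in MI and 25.4 in its sham, against 34.0 in TAC and 9.55 in its sham. Cxcl13, which attracts B cells, had 189 in MI and 47.3 in its sham, against 31.8 in TAC and 27.6 in its sham, and its second probe set had a net difference of 3.24. Among acute phase genes 4 of 10 were called higher, against 4.59% of all genes. Hp, the haemoglobin-binding protein haptoglobin, had 127 in MI and 6.13 in its sham, against 26.3 in TAC and 11.9 in its sham. Interferon-induced genes went the other way without any call, with a median net difference of -0.31 and 3 of 19 above 0.

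The matrix of the scar gave a mixed picture. Postn, the matricellular protein periostin, had 3640 in MI and 561 in its sham, against 3033 in TAC and 463 in its sham, a net difference of -0.01. Col1a1, the main chain of type I collagen, had 1307 in MI and 315 in its sham, against 1456 in TAC and 365 in its sham, a net difference of 0.05. Both injuries were far above their shams and close to each other. Of the 8 measured fibrillar collagens only Col12a1 was called; it was dim, at 50.1 in MI and 21.3 in its sham, against 6.63 in TAC and 17.6 in its sham. Another probe set of Col12a1 disagreed, with 57.9 in MI and 11.5 in its sham, against 51.8 in TAC and 7.38 in its sham, a net difference of -0.48. Basement membrane collagens had a median of -0.18, with 4 of 20 above 0 and 0 called. Postn and Col1a1 were chosen after their values were seen.

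Of 13 measured cartilage and tendon-like genes 5 were called higher, against 4.59% of all genes, and 0 lower, with a median of 0.57. That median was 0.31 with signals as deposited, where the median gene was at -0.24. At 1 week it was -0.13, with 3 of 13 genes above 0. Sfrp2, a secreted inhibitor of Wnt signalling, had 435 in MI and 27.7 in its sham, against 67.9 in TAC and 37.1 in its sham. Fmod, the collagen-binding proteoglycan fibromodulin, had 337 in MI and 36.4 in its sham, against 140 in TAC and 43.5 in its sham. In both genes MI was highest and TAC came next. Angptl7, an angiopoietin-like secreted protein, had 568 in MI and 128 in its sham, against 125 in TAC and 87.5 in its sham. Ecrg4, a secreted peptide precursor, had 437 in MI and 22.1 in its sham, against 150.0 in TAC and 20.7 in its sham. For Ecrg4 TAC was also well above both shams, whereas for Angptl7 it was level with the sham of MI. The fifth, Sox9, a transcription factor of cartilage, was dim and passed only the net difference.

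Matricellular proteins had 4 of 19 called higher, against 4.59% of all genes, and 0 lower. Ccn5, a member of the CCN family of growth regulators, had 332 in MI and 59.7 in its sham, against 120.1 in TAC and 52.9 in its sham. Cthrc1, which marks activated fibroblasts of healing infarcts, had 89.3 in MI and was at the floor of 4.54 in its sham, against 18.9 in TAC and 16.2 in its sham. Its net difference of 4.07 therefore rests partly on a sham at the floor, and the direct difference was 2.24. At 1 week the net difference of Cthrc1 went the other way, at -1.33. It then had 797 in MI and 37.6 in its sham, against 243 in TAC and the floor in its sham. Fn1, fibronectin, passed the net difference alone, with 1140 in MI and 240.1 in its sham, against 639 in TAC and 368 in its sham. Lox, the enzyme that cross-links collagen, is listed with activated fibroblast genes and behaved likewise. It had 191 in MI and 16.1 in its sham, against 134 in TAC and 47.3 in its sham. Another probe set of Lox had 130 in MI and 32.4 in its sham, against 89.1 in TAC and 39.1 in its sham. Its net difference was 0.81 and did not pass, and a dim probe set gave 1.32. For both genes MI was highest, and the sham of MI lay below the sham of TAC.

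A few genes high in fat were above TAC, while the adipocyte list as a whole was not. Adipoq, the fat hormone adiponectin, had 102 in MI and 7.37 in its sham, against 21.4 in TAC and 19.4 in its sham. Car3, a carbonic anhydrase abundant in fat and slow muscle, had 630.0 in MI and 36.5 in its sham, against 150.2 in TAC and 38.7 in its sham. Cyp2e1, a drug-metabolising enzyme also found in fat, had 237 in MI and 22.0 in its sham, against 48.8 in TAC and 22.6 in its sham. These 3 were highest in MI, and TAC was above its sham for Car3 and Cyp2e1. Of the other 3 probe sets of Car3, 2 gave net differences of 2.23 and 1.72 and 1, with no signal above 8.51, gave -1.44. The other listed adipocyte genes did not follow: the median over 17 was 0.03, 7 were below 0, 2 were called higher, against 4.59% of all genes, and Thrsp, a regulator of fat synthesis, had a net difference of -0.78. The leptin gene Lep was under the filter, at the floor in MI and 15.8 in its sham, against the floor in TAC and in its sham, and Retn, another fat hormone, was also under it at 48.6 in MI and 6.13 in its sham, against 14.9 in TAC and 21.2 in its sham. The summed adipocyte list was 12359 in MI and 14130 in its sham, against 11183 in TAC and 13012 in its sham, and how far adhering fat bears on Adipoq and Car3 was not tested.

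**Figure D3:**
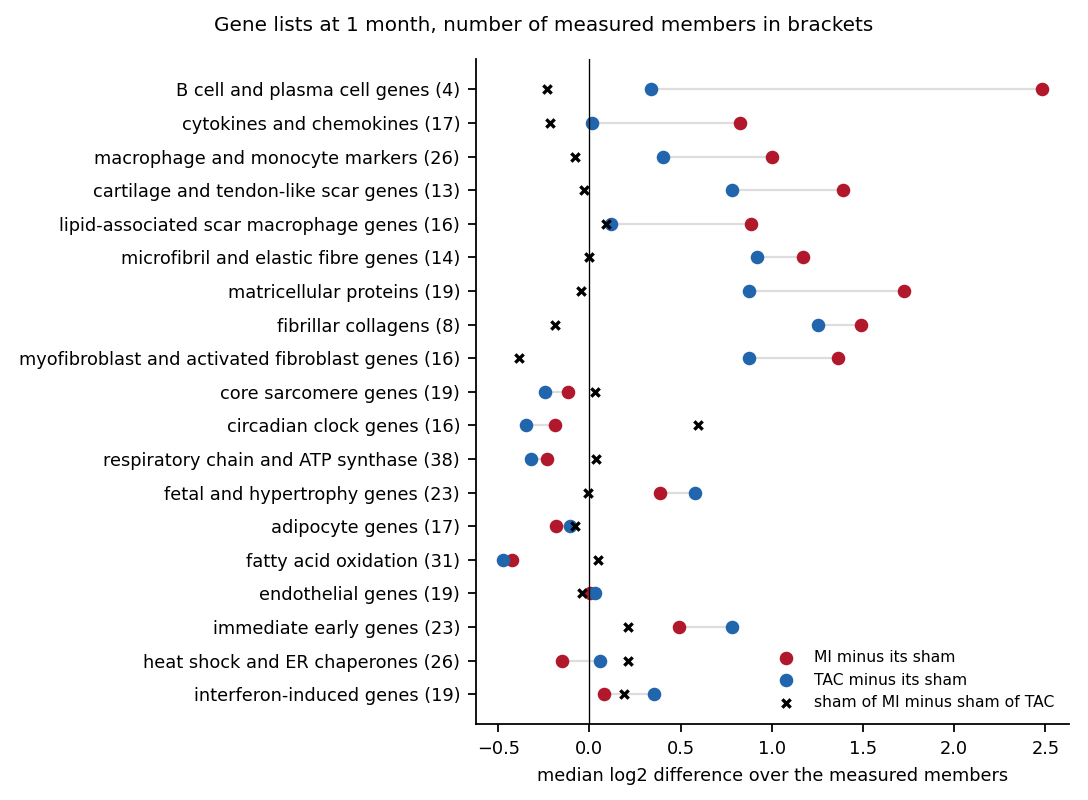
Median log2 difference over the measured members of 19 gene lists, red for MI minus its sham, blue for TAC minus its sham and a cross for the sham of MI minus the sham of TAC. The lists are ordered by median net difference; those at the top lie further right in MI, those of muscle and fuel use lie together, and the clock genes have their largest value between the shams.

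Genes of fuel use and of the sarcomere held none that separated the injuries by the rule, while those of the fetal and hypertrophy list ran from -2.12 to 1.75. Nppa and Myh7, members of the last, were picked after their values were seen because they were alike. Nppa, atrial natriuretic peptide, had 9373 in MI and 1857 in its sham, against 8296 in TAC and 1697 in its sham, a net difference of 0.05. Myh7, the beta-myosin heavy chain, had 2322 in MI and 837 in its sham, against 3254 in TAC and 1085 in its sham, a net difference of -0.11. Fatty acid oxidation genes lay below sham after both injuries, with list medians of -0.42 in MI and -0.48 in TAC, and respiratory chain genes with -0.23 in MI and -0.32 in TAC. With signals as deposited these were -0.37 in MI and -0.16 in TAC for fatty acid oxidation and -0.17 in MI and -0.0032 in TAC for the respiratory chain. The median gene was then at 0.07 in MI minus its sham and 0.31 in TAC minus its sham. With quantile normalization fatty acid oxidation was at -0.40 in MI and -0.42 in TAC. The respiratory chain was then nearer its shams, at -0.085 in MI and -0.092 in TAC. None of 31, 38 and 19 measured members of the fatty acid, respiratory chain and sarcomere lists was called, against 7.13% of all genes. These members are bright, and brighter genes were called in 1.47% of cases. At most small shifts remained: 31 of 38 respiratory chain genes and 16 of 19 sarcomere genes had a net difference above 0, with medians of 0.09 and 0.13. Both medians turned negative, -0.17 and -0.13, with signals as deposited, where the median gene was at -0.24. With quantile normalization they were -0.0052 and 0.00082.

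Within the fetal and hypertrophy list 1 of 23 measured genes was called higher, against 4.59% of all genes, and 3 lower, against 2.54%, and none passed both settings. Mybpc2, the fast skeletal form of myosin-binding protein C, had 171 in MI and 249 in its sham, against 314 in TAC and 204 in its sham. Nes, the intermediate filament nestin, had 55.2 in MI and 69.7 in its sham, against 101 in TAC and 51.7 in its sham. On these probe sets TAC was the highest array in both genes and MI lay below its sham. Another probe set of Nes had a net difference of -0.20, with the sham of TAC highest at 54.2. A dim one, with no signal above 9.08, gave 1.82. Tubb2b, a beta-tubulin, and Uchl1, a ubiquitin hydrolase of neurons, were dim and had shams that differed 2-fold. Atrial light chain Myl7, not called, had 987 in MI and 369 in its sham, against 563 in TAC and 389 in its sham.

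Heat shock genes made up 3 of the 6 brighter genes lower after MI than after TAC. Hspa1a and Hspa1b encode the inducible HSP70 chaperones, and Hsph1 a co-chaperone that exchanges their nucleotide. All are switched on by heat shock factor, which binds inverted repeats of GAA. To show what the pair of HSP70 genes share, RefSeq promoter windows of build GRCm38.p6, from 250 bases before to 50 bases after the gene start, are given 5′ to 3′ on the strand of the gene, with matches to GAANNTTC or TTCNNGAA in capitals. Both motifs read the same on either strand, so each match was counted once.
Hspa1b (chr17:34959189-34959488, minus strand): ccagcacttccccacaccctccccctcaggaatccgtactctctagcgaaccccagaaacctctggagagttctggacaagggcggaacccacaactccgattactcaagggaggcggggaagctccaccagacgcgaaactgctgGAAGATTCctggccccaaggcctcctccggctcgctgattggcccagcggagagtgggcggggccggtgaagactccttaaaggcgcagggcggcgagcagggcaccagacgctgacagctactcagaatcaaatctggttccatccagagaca
Hspa1a (chr17:34972107-34972406, minus strand): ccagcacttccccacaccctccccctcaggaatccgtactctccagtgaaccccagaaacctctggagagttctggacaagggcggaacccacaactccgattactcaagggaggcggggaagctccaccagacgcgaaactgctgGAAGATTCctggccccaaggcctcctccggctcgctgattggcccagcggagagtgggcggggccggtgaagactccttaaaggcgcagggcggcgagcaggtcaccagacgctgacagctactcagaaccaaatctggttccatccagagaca
Hsph1 (chr5:149636266-149636565, minus strand): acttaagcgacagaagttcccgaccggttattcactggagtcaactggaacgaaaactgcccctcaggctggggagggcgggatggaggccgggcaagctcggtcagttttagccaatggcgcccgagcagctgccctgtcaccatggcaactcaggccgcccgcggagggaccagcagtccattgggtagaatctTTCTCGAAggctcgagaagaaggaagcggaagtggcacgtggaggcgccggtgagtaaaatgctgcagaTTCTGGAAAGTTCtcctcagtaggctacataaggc
The windows of Hspa1b and Hspa1a were identical at 296 of 300 bases (98.7%), and each held 1 match, at the same place. Hsph1, shown for 1 of its 2 listed starts, held 3 matches, of which 2 overlap. Either motif occurs in 15.1% of 32851 promoter windows and in 11 of 29 windows of the heat shock and chaperone list, which cover 22 of its 27 genes. The transcripts of Hspa1a and Hspa1b are also near-identical, so their probe sets may read both genes and are not independent.

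Hspa1b had 347 in MI and 2551 in its sham, against 1850.2 in TAC and 169 in its sham. Hspa1a had 119 in MI and 570.0 in its sham, against 756 in TAC and 101 in its sham. Hsph1 had 337 in MI and 797 in its sham, against 682 in TAC and 391 in its sham. The pattern was the same in all 3 genes: the sham of MI and the TAC array were high, and MI and the sham of TAC were low. The net differences of -6.33, -5.16 and -2.05 therefore add 2 contrasts of which 1 is between shams, 3.92, 2.49 and 1.03 for the sham of MI minus the sham of TAC. The direct differences were -2.41, -2.66 and -1.02. All 3 probe sets of Hspa1b showed it, with net differences from -6.33 to -5.80. Dnajb1 and Dnaja1, J-domain partners of HSP70, passed the net difference alone, at -1.53 and -1.25. Over the 26 measured heat shock and chaperone genes the median was -0.28, with 5 called lower, against 2.54% of all genes, and 0 higher, and the list median moved to -0.09 in the direct difference. At 1 week the net differences were -0.69, -0.66 and -0.38, with Hspa1b at 855 in MI and 1980 in its sham, against 214 in TAC and 309 in its sham. For Hspa1b the sham of MI was thus the highest array at both times, whereas TAC was far above its sham at 1 month only.

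**Figure D4:**
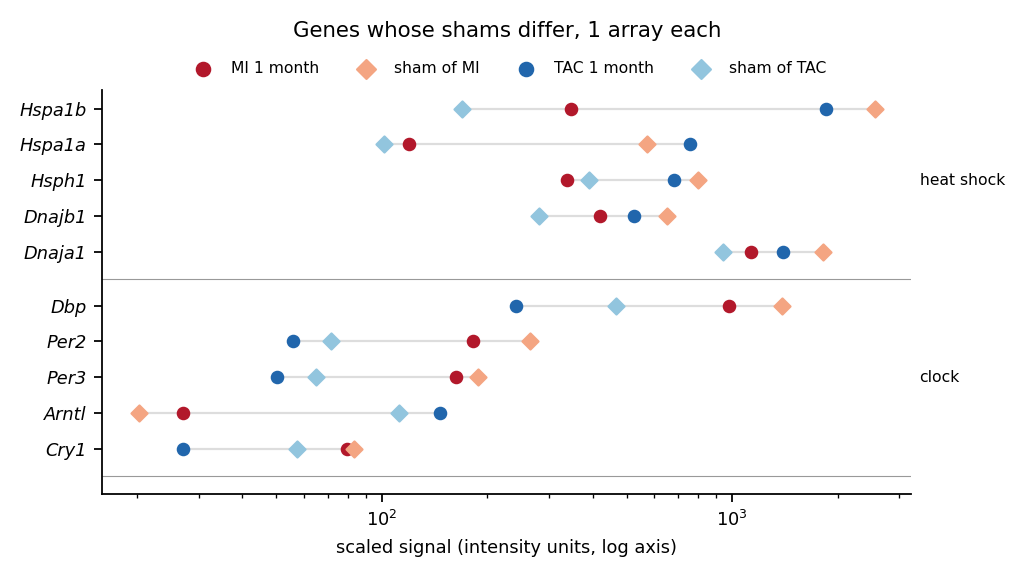
Scaled signal on a log axis for 5 heat shock genes and 5 clock genes, with circles for MI and TAC and diamonds for their shams. In the heat shock genes the sham of MI and the TAC array lie to the right; in Dbp, Per2, Per3 and Cry1 both arrays of the infarction series lie right of both arrays of the constriction series, and in Arntl left of them.

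At 1 month clock genes show the reverse case, a difference between the injured hearts that their own shams cancel. These genes form the feedback loop of the daily rhythm, in which Arntl activates the Per and Cry genes and the output gene Dbp. Dbp had 977 in MI and 1387 in its sham, against 241 in TAC and 467 in its sham. Arntl had 27.0 in MI and 20.2 in its sham, against 147 in TAC and 112 in its sham. Another probe set of Arntl differed less, with 26.5 in MI and 24.7 in its sham, against 35.7 in TAC and 45.3 in its sham. Its direct difference was -0.43, against -2.44 for the brighter probe set. In both genes the infarction series stood apart from the constriction series, and for Dbp TAC minus its sham was also -0.95. Over 16 measured clock genes the median net difference was 0.09, the direct difference 0.66, and the sham of MI minus the sham of TAC 0.60. Per2 and Per3 followed Dbp, with direct differences of 1.71 and 1.70 and sham differences of 1.89 and 1.54. Cry1 alone was called in both settings, at 79.4 in MI and 83.2 in its sham, against 27.1 in TAC and 57.2 in its sham. At 1 week the shams did not cancel the difference in this way. The net differences were then -2.51 for Dbp, -1.06 for Per2, -1.66 for Per3 and 3.96 for Arntl. The other probe set of Arntl gave 0.52. The list median was -0.57, with 4 of 16 above 0. Dbp, Per2, Per3 and Arntl were chosen after their values were seen.

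A few brighter genes separated the injuries because TAC was low. Zbtb16, a glucocorticoid-induced transcription factor, had 884 in MI and 1135 in its sham, against 324 in TAC and 986 in its sham. Rgs2, which damps G-protein signalling from hormone receptors, had 217 in MI and 139 in its sham, against 101 in TAC and 212 in its sham. In both genes TAC was the lowest of the 4 arrays. At 1 week Zbtb16 went the other way, with a net difference of -1.15. It then had 735 in MI and 1148 in its sham, against 604 in TAC and 425 in its sham. Its other probe sets gave 0.88 and 0.42 at 1 month and -1.25 and -0.99 at 1 week. For Rgs2 the other 3 probe sets gave net differences of 1.59, 1.09 and 2.01. Of the glucocorticoid-responsive list 3 of 19 were called higher, against 4.59% of all genes, Zbtb16, Klf15 and Lcn2, with a median of 0.00, and Lcn2 was highest in the sham of TAC.

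Vessel lining was represented by Plvap, a protein of endothelial diaphragms, at 162 in MI and 56.6 in its sham, against 77.7 in TAC and 82.4 in its sham, and by Vwf, von Willebrand factor, at 402 in MI and 206 in its sham, against 216 in TAC and 232 in its sham. In both, MI was the highest array. For Plvap the direct difference was 1.06, and the sham of MI minus the sham of TAC -0.54. The 19 measured endothelial genes had a median of -0.01, with 2 called higher, against 4.59% of all genes, and 0 lower. Vegfd, a growth factor of lymph vessels, was called in both settings at 78.1 in MI and 33.3 in its sham, against 34.2 in TAC and 52.5 in its sham. Immediate early genes had 4 of 23 called lower, against 2.54% of all genes, and 0 higher, with Atf3 at 82.1 in MI and 83.3 in its sham, against 133 in TAC and 67.2 in its sham.

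The genes with the largest net differences were mostly dim. Of the 12 highest that passed both settings, Prss12, Tlr1, Cthrc1, Fam89a, Adipoq, Ighm, Olfr15, Spata9, Azgp1, Rasa4, Myoz1 and Efna2, 11 had no signal above 111, 7 had an array at the floor and 10 had shams that differed 2-fold. Prss12, a secreted serine protease, led with a net difference of 5.41, from 20.7 in MI and the floor in its sham, against the floor in TAC and 42.1 in its sham. Its highest array was thus a sham. Of the 12 lowest, Hspa1b, Hoxb9, Hspa1a, Colq, 9530082P21Rik, Acsf2, Il17ra, Fam184a, Flt3, Tmem138, 1810064F22Rik and Zbtb5, 10 were dim and 10 had such shams. Hoxb9, a homeobox gene, had 6.48 in MI and 45.7 in its sham, against 29.0 in TAC and 4.99 in its sham. Zbtb5, a zinc finger gene, differs from these in having level shams, with 6.08 in MI and 44.0 in its sham, against 52.5 in TAC and 43.4 in its sham. At the edge of the rule, Lrrc4b had a net difference of 1.00 and Mturn of 1.00 from just below, so genes on either side of it differ little.

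The 1 week arrays, MI and its sham with TAC and its sham, share no array with those at 1 month. Of the 28 brighter genes higher after MI, 22 had a net difference above 0 at 1 week (78.6%, against 51.7% of all genes) and 16 were 2-fold in the same direction, where 5.81% of all genes and 1.94% of bright genes were. Those repeated at 1 week include Gpnmb, Lgals3, Hp, Mmp12, Cxcl13, Ctss, Ccl8, Sfrp2 and Ccn5. Ighm, Jchain and Fmod were above 0 at 1 week without reaching 2-fold. Those below 0 at 1 week were Zbtb16 (-1.15), Car3 (-0.83), Cyp2e1 (-0.42), Ecrg4 (-0.38), Angptl7 (-0.34) and Igha (-0.16). Zbtb16 was thus 2-fold the other way. Of the 6 lower ones, 1 was 2-fold lower at 1 week too, 3110040M04Rik at -2.24, against 3.68% of all genes and 1.17% of bright ones. Of all 143 genes higher under both settings 45 were 2-fold higher at 1 week, and of the 93 lower ones 11 were 2-fold lower.

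**Figure D5:**
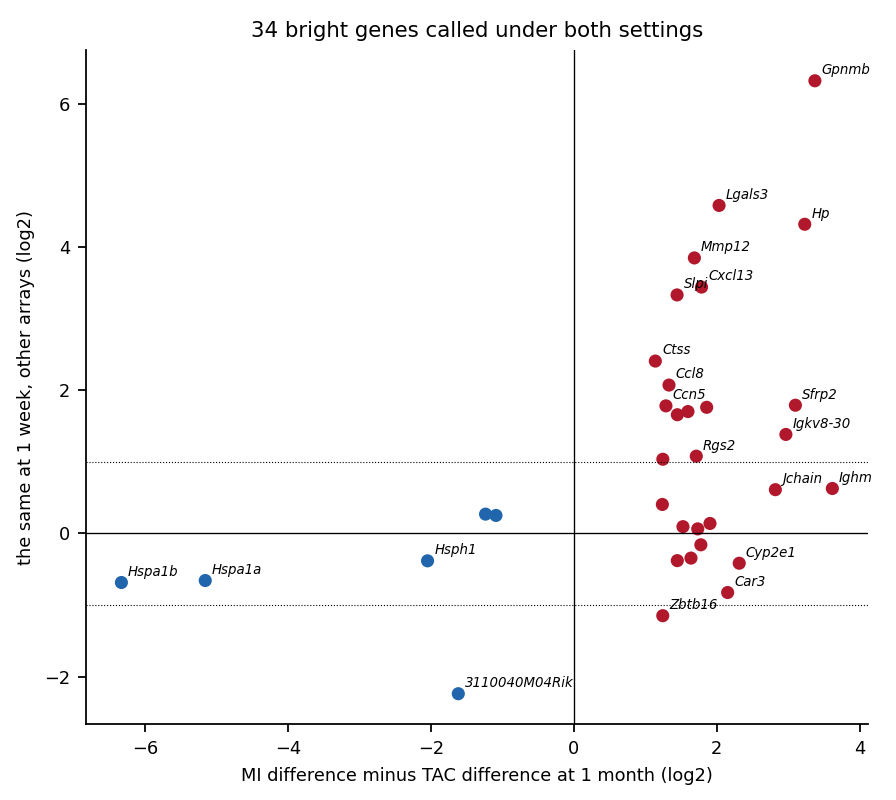
Net difference at 1 month on the horizontal axis against the net difference at 1 week on the vertical axis, in log2, for the 34 brighter genes that passed both settings, red where higher after MI and blue where lower. The dotted lines mark 2-fold at 1 week; 16 of the 28 red points lie above the upper line, led by Gpnmb, Lgals3 and Hp, and 1 of the 6 blue points below the lower line.

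A test across genes was possible only by joining both times. A limma fit on the 4 log2 ratios of injury to own sham, with injury and time as terms, left 1 residual degree of freedom. No gene reached an adjusted p of 0.05 in limma (0.00% of 11624), the smallest adjusted p being 0.0631, and 1133 genes (9.75%) had an unadjusted p under 0.05, among them 20 of the 28 brighter genes higher after MI. Gpnmb had an adjusted p of 0.0719 in limma. With quantile normalization 66 genes passed, 40 higher and 26 lower, and 10 of the 34 brighter genes were among them, including Gpnmb, Lgals3, Ctss, Ccl8, Hp and Sfrp2. With signals as deposited 135 passed, 41 higher and 94 lower. The fit takes any change of the difference between 1 week and 1 month as noise, and it uses the 1 month arrays described above. The 28 and the 34 genes were picked by values of those 1 month arrays, so their counts in the fit add no support.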

How the data were processed

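Each array was deposited as intensity values, linear signals for 45101 probe sets on a 1-colour Affymetrix platform. GCOS is named in the submitters' processing notes without a version. How signals were computed, and whether they were scaled before deposit, is not stated in those notes. With 1 array a group there are no replicates, and the number of arrays limits the precision.

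Signals were scaled to a common 2% trimmed mean over the 12 arrays, raised to the 20th percentile of all values (4.54) where lower, and taken to log2. Of the probe sets, 34958 had exactly 1 gene symbol in the platform annotation, 932 several, and 9211 were not listed. The brightest probe set stood for its gene. A mean signal above 18.1, the 40th percentile, was required, which left 11624 genes. Named genes are the 12 highest and 12 lowest net differences under both sham settings and, for each of 60 lists, the members called and the 3 with the largest net difference in size; others are marked in the text. The comparison and the lists were chosen with earlier results of these data known. The combined fit used limma 3.58.1 in R 4.3.3, two-sided, with an intensity trend and Benjamini-Hochberg adjustment at 0.05, and was checked on simulated data. Alternatives were other scalings, floors, probe-set rules, filters, shams, signal minimums and fit settings. Probe-set positions are not used here.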

Additional observations from a re-analysis of the deposited data

Results flagged for a closer look

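In 14 of the named genes MI and TAC moved at least 2-fold in opposite directions from their own shams; with 1 array a group the difference at 1 month was not tested. After MI lower and after TAC higher were Hspa1b (net difference -6.33), Hoxb9 (-5.36), Hspa1a (-5.16), Colq (-4.92), 9530082P21Rik (-4.18), Acsf2 (-4.05), Il17ra (-3.85) and Flt3 (-3.60). After MI higher and after TAC lower were Prss12 (5.41), Tlr1 (4.79), Fam89a (3.70), Myoz1 (3.38), Gpnmb (3.37) and Col12a1 (2.64), of which another probe set was above sham after both injuries (-0.48). Only Hspa1b, Hspa1a and Gpnmb had a signal above 111 on any of the 4 arrays. In the limma fit over both times their adjusted p-values ran from 0.0719 for Gpnmb to 0.886 for Hoxb9.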

How the results depend on the processing

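Counts moved with several settings. With signals as deposited, 341 genes passed the net difference higher and 560 lower, 94 and 166 passed both settings, 28 and 20 of those were 2-fold the same way at 1 week, and 135 passed limma. With quantile normalization 66 passed limma, and with a floor at the 40th percentile 2 did, while both settings gave 58 lower genes, 5 of them repeated at 1 week. Without the filter on dim genes 865 were higher and 464 lower, 279 and 198 in both settings, and 73 and 24 repeated. Against the mean of both shams 207 were higher and 186 lower. The brighter minimum left 72 higher and 36 lower, and 28 and 6 in both settings. Asking that MI or TAC lie outside the range of the 6 controls left 294 higher and 168 lower. In the other limma fits 0 genes passed, with between 527 and 1168 at an unadjusted p under 0.05. List medians with signals as deposited were -0.24 for fatty acid oxidation, -0.17 for the respiratory chain, -0.062 for fibrillar collagens, 0.35 for macrophage markers, 0.30 for lipid-associated macrophage genes, -0.23 for adipocyte genes and -0.54 for chaperones, beside a shift of -0.24 for the median gene. The respiratory chain median was -0.0052 with quantile normalization and 0.15 against the mean of both shams, and that of the lipid-associated list 0.27 over all probe sets. Lists with a median of at least 0.25 in size that changed sign were cell cycle genes (0.0021 with the higher floor, 0.12 against the mean of both shams), lung genes (-0.23) and the integrated stress response (-0.0013) over all probe sets, and against the mean of both shams mast cell (-0.29), skeletal muscle (0.25) and erythroid genes (0.15). The causes were not tested. No single named gene changed sign in 373 values under these alternatives. No paired analysis was possible because each group has 1 array. Dim signals limit most calls: between the median and the 75th percentile 454 of 4129 genes differed 2-fold between shams.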
